A study of Homo sapiens with 4 samples.

Results

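The genes described here are 9 genes of the neuronal microtubule cytoskeleton and the growth cone: MAP2, MAP1B, DCX, STMN1, STMN2, TUBB3, GAP43, GPM6A and FABP7. They come from a list of symbols and were not chosen by a threshold on their values, and all 9 were found among the 60674 features of the matrices. Human pluripotent stem cells (hPSC), labelled as the line H9, had been infected with a lentiviral pool of CRISPR guides and with a lentivirus carrying Cas9 and mCherry, sorted on fluorescence and grown on for a week. One library was made from cells labelled hPSC and 1 from cells labelled Ectoderm, which had gone through induction towards that lineage, and the guides of the second pool target other genes than those of the first. Both libraries therefore come from infected, Cas9-bearing cells, and no uninfected culture was included. With 1 library per state there is no replicate check and no test between states. State, guide pool and culture cannot be told apart, and every interval below is a 95% interval that covers counting error only.

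The hPSC library held 15326 cells with a median of 4808 unique molecular identifiers (UMIs) each, and the ectoderm library 16360 cells with a median of 4499. Their totals were 83246015 and 91249888 UMIs. The median mitochondrial share was 4.18% of UMIs in hPSC and 3.17% in ectoderm. Expression did not match the labelled line in 2 of 2 libraries, and 78 cell barcodes occurred in both. Leaving those cells out moved the log2 ratio of MAP2 from 5.25 to 5.24. Of 12 neural ectoderm progenitor genes at 20 CPM or more (UMIs scaled to a common library total), 11 were at least 2-fold higher in the ectoderm library. The share was 3.25% over all genes at that level. OTX2, 1 of the 11, stood at 106 against 4.71 CPM. The later progenitor genes PAX6 and HES5 stood at only 1.20 and 0.0767 CPM in ectoderm. The pluripotency factor POU5F1 stood at 485 CPM in ectoderm, against 1155 CPM in hPSC.

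Microtubules give a neurite its shape, and the members of this list act on them at different points. MAP2 binds along microtubules and is a classic marker of neuronal dendrites, MAP1B and DCX bind them in growing and migrating neurons, and TUBB3 is the tubulin subunit used as an early neuron marker. Stathmins such as STMN1 and STMN2 bind free tubulin and promote disassembly, STMN1 in proliferating cells at large and STMN2 mainly in neurons. GAP43 and GPM6A are membrane proteins of growth cones and neurites, and FABP7 is a fatty acid carrier of radial glia, the progenitors of the developing brain.

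Upstream sequence is shown for MAP2 and GAP43, the members with opposite differences between the libraries for which RefSeq (GRCh38.p14) gave an entry. RefSeq windows were found for 8 of the 9 members, 19 windows in all, each with 250 bases before a transcript start, and STMN2 had no entry. Each stretch below lies on the plus strand and ends before the first exon that GENCODE v29 annotates in the window. Capitals mark matches on either strand to ACAAT, the core bound by SOX factors, or to GATTA, a homeobox core of the OTX kind. A further MAP2 window, at 209579357 to 209579606, lies between the printed ones; it also holds 1 ACAAT match and is not shown. The first stretch is chr2:209579082-209579314, the second chr2:209661246-209661464 and the last chr3:115623260-115623323.
MAP2, first printed start: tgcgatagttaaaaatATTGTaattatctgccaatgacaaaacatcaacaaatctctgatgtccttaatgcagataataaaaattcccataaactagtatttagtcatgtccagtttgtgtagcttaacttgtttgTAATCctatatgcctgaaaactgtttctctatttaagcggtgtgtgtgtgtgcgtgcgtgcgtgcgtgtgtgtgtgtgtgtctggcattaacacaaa
MAP2, second printed start: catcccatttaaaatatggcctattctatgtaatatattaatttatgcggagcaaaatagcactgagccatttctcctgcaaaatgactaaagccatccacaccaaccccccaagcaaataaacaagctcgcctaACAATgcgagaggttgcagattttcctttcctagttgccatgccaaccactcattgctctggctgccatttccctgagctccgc
GAP43: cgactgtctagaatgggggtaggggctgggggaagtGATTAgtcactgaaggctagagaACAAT

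Both MAP2 stretches and the GAP43 stretch hold 1 ACAAT match each, and 1 GATTA match lies in the first MAP2 stretch and 1 in that of GAP43. The marked matches do not overlap each other. Among 35116 RefSeq windows of 250 bases, 24.6% hold ACAAT and 17.9% hold GATTA, so neither match sets these genes apart. The E-box CAGCTG, the octamer ATGCAAAT, the TATA box TATAAA, the GC box GGCGGG and TTCAGCACC, part of the element bound by the REST repressor, were not found in the windows of MAP2 and GAP43. The matches are letters in a window and say nothing about which start the cells used, since the reads come from the 3′ end of transcripts.

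The 2 libraries differed in opposite directions for MAP2 and for the pair STMN2 and GAP43. MAP2 was 38.1-fold higher in ectoderm, while STMN2 and GAP43 were lower by 2.43-fold and 2.33-fold. Among the members, 5 reached 20 CPM in at least 1 library, the minimum used for counting a difference. Of these, 1 (MAP2) was at least 2-fold higher in ectoderm, where 3.25% of the 6249 genes at that level were, and 2 (STMN2 and GAP43) were at least 2-fold lower, against 4.03% of all such genes. The median log2 ratio was 0.12 over these 5 members and -0.03 over all 6249 genes.

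MAP2 (ENSG00000078018, chromosome 2, 209424058 to 209734118, plus strand; positions from GENCODE v29 on GRCh38) had 72 UMIs in the whole hPSC library, or 0.865 CPM (0.677 to 1.09). In the ectoderm library it had 3006 UMIs, or 32.9 CPM (31.8 to 34.1). The log2 ratio of ectoderm over hPSC was 5.25 (4.91 to 5.61), the sixth highest of the genes counted. Where only cells with a non-targeting guide were compared, 212 in hPSC and 159 in ectoderm, MAP2 had 0 UMIs in hPSC and 34 in ectoderm. With the hPSC count set to a floor of 3, the log2 ratio was 3.80. Its counting interval started at 3.42 and had no upper bound.

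STMN2 (ENSG00000104435, chromosome 8, 79610814 to 79666175, plus strand) stood at 42.9 CPM in the hPSC library against 17.6 CPM in ectoderm, from 3572 and 1610 UMIs. Its log2 ratio was -1.28 (-1.37 to -1.20). GAP43 (ENSG00000172020, chromosome 3, 115623324 to 115721490, plus strand) had 1669 UMIs in hPSC, or 20.05 CPM, and 785 in ectoderm, or 8.60 CPM. The log2 ratio of GAP43 was -1.22 (-1.34 to -1.10), an interval that overlaps that of STMN2. GAP43 lies just over the 20 CPM minimum. When cells with more than 3 times their library's median UMIs were left out it missed the minimum, with a ratio of -1.24, and only MAP2 and STMN2 were then counted.

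The other microtubule genes showed smaller differences or few UMIs. MAP1B (ENSG00000131711, chromosome 5, 72107234 to 72209570) stood at 169 CPM before and 219 CPM after induction, with a log2 ratio of 0.38 (0.34 to 0.41). STMN1 (ENSG00000117632, chromosome 1, 25884181 to 25906991), the stathmin of dividing cells, stood at 1179 and 1279 CPM, with a log2 ratio of 0.12 (0.11 to 0.13). Neither came near a 2-fold difference. DCX (ENSG00000077279, chromosome X, 111293779 to 111412429) was read from 147 hPSC and 111 ectoderm UMIs, with a log2 ratio of -0.54 (-0.91 to -0.17). TUBB3 (ENSG00000258947, chromosome 16, 89921392 to 89938761) had 133 and 59 UMIs, a log2 ratio of -1.31 (-1.77 to -0.85). These early neuron markers were thus under 2 CPM in both libraries. TUBB3 overlaps the read-through gene AC092143.1, which had 0 UMIs in both libraries, so that reads shared by the pair may have been left out of its count.

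GPM6A (ENSG00000150625, chromosome 4, 175632934 to 176002664, minus strand) stood at 4.25 CPM in the first library and 2.53 CPM in the second, with a log2 ratio of -0.75 (-0.99 to -0.51). FABP7 (ENSG00000164434, chromosome 6, 122779475 to 122784074, plus strand) was the other member besides MAP2 with a large higher value in ectoderm, at 12.3 against 3.36 CPM. Its log2 ratio was 1.87 (1.68 to 2.06), but it stayed under 20 CPM in both libraries and so was not counted. With a minimum of 5 CPM it would be.

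**Figure D1:**
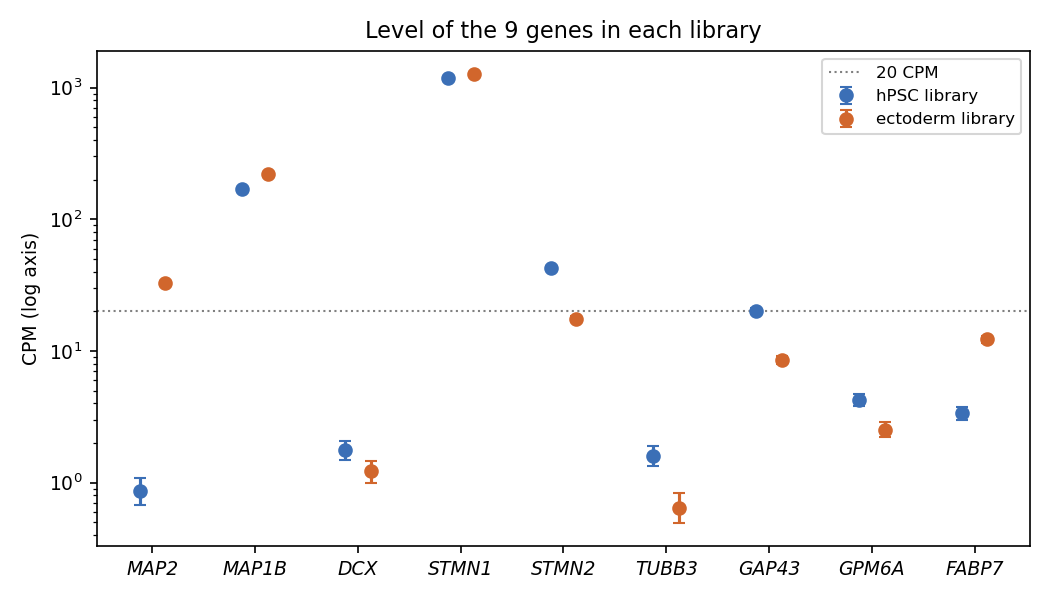
Level of each gene in CPM on a log axis, in the hPSC library (blue) and the ectoderm library (orange), 1 library each; bars are exact Poisson 95% intervals of the UMI sum and the dotted line marks 20 CPM. MAP2 crosses that line from 0.865 to 32.9 CPM, whereas STMN2 and GAP43 move the other way.

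Detection in single cells was compared after each cell had been thinned at random to 3000 UMIs, which left 13862 hPSC and 13298 ectoderm cells. Cells with fewer UMIs were left out, 1464 in hPSC and 3062 in ectoderm. A MAP2 UMI was seen in 38 hPSC cells (0.274%, exact interval 0.194 to 0.376%) and in 1235 ectoderm cells (9.29%, 8.80 to 9.79%). For STMN2 the shares were 11.2% of hPSC and 4.50% of ectoderm cells, and for GAP43 5.86% and 2.57%. STMN1 was seen in 96.3% and 97.0% of cells and MAP1B in 38.4% and 46.9%. The low members were seen in few cells of either library: DCX in 0.476% and 0.429%, TUBB3 in 0.476% and 0.203%, GPM6A in 1.20% and 0.835%, and FABP7 in 0.895% and 3.28%. Before thinning, MAP2 was seen in 0.463% of hPSC and 15.8% of ectoderm cells, STMN2 in 17.4% and 8.42%, and GAP43 in 10.03% and 4.58%. No cell type known to lack these genes was defined in the libraries, so the share that free RNA would give was not measured.

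The MAP2 UMIs of the ectoderm library were spread over many cells and not held by a few. If the thinned UMIs had fallen on cells evenly at random, 9.61% of ectoderm cells would have had one, against the 9.29% observed. Thinned cells averaged only 0.101 MAP2 UMIs, where many uneven spreads would give a similar share. The comparison therefore cannot show how evenly the cells expressed MAP2. Before thinning, 2200 ectoderm cells had 1 MAP2 UMI, 337 had 2, 31 had 3 and 9 had 4 or more, with 6 as the most in a cell. The variance of thinned MAP2 counts was 1.08 times the mean. STMN2 had the highest ratio of variance to mean among the contrasted genes, 1.18 in hPSC and 1.14 in ectoderm. Even spread would have given 12.1% of hPSC cells an STMN2 UMI, against the 11.2% seen. For GAP43 the ratio of variance to mean was 1.03 in both libraries, close to the 1 of random spread. GAP43 averaged only 0.061 and 0.026 UMIs per thinned cell, and at so few the ratio stays near 1 for uneven spreads as well. Ratios of genes at different levels are thus not on one scale. The STMN2 UMIs of the hPSC library reached 8 in a single cell, those of GAP43 3.

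**Figure D2:**
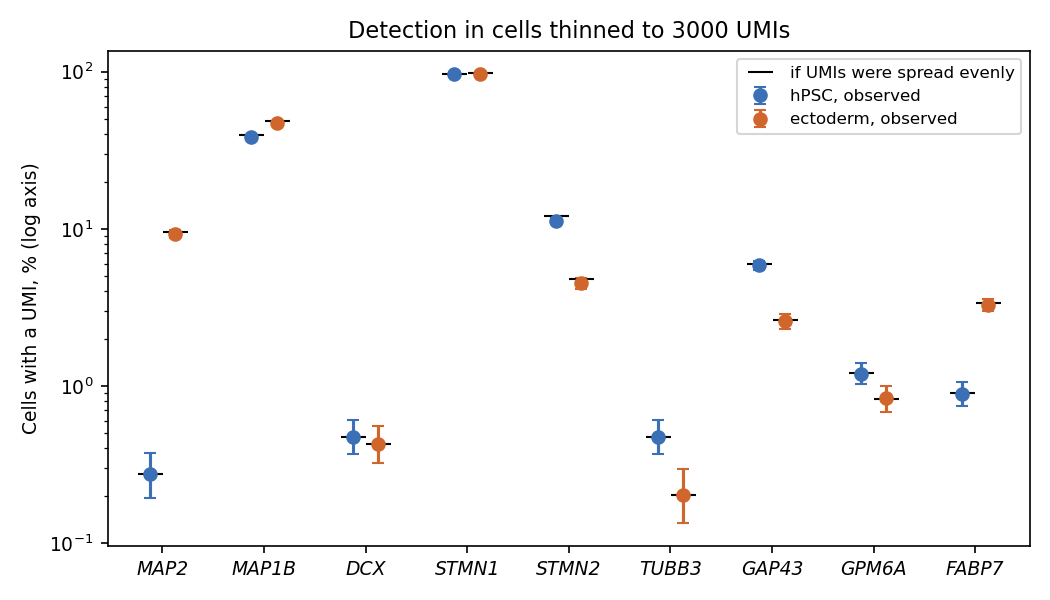
Share of cells with at least 1 UMI of each gene, in percent on a log axis, after thinning every cell to 3000 UMIs; points are observed shares with exact 95% intervals and black dashes the shares that an even spread of the same UMIs would give. Observed shares lie on or close to the dashes. MAP1B (38.4 against 39.8% in hPSC, 46.9 against 48.9% in ectoderm) and STMN1 lie under them beyond their intervals in both libraries. STMN2 does so in hPSC (11.2 against 12.1%), while its ectoderm interval includes the dash (4.50 against 4.81%).

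Co-detection asks whether 2 genes turned up in the same cells more often than the product of their shares gives. In ectoderm, 71 thinned cells had both MAP2 and STMN2 where 55.5 were expected, a ratio of 1.28 (0.999 to 1.61). MAP2 and GAP43 met in 32 cells, with 31.8 expected (1.01, 0.689 to 1.42). STMN2 and GAP43, both lower in this library, met in 20 cells with 15.4 expected (1.30, 0.794 to 2.01). All 3 intervals include 1. For MAP2 with STMN2 the lower bound is close to 1, and with a stricter cell filter the ratio was 1.28 (1.001 to 1.62). It was 1.01 (0.801 to 1.25) when cells were thinned to 5000 UMIs and 1.12 (0.991 to 1.25) over all cells binned by depth. In hPSC, STMN2 and GAP43 met in 87 cells with 90.9 expected (0.957, 0.767 to 1.18), and MAP2 and STMN2 in 5 with 4.26 expected.

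Of the 36 pairs of members, 22 in hPSC and 23 in ectoderm had at least 5 cells expected. Their ratios ran from 0.406 to 1.38 in hPSC, and 0 intervals lay above 1. In ectoderm they ran from 0.624 to 1.84, and 2 intervals lay above 1: MAP2 with GPM6A, in 19 cells against 10.3 expected (1.84, 1.11 to 2.88), and STMN2 with FABP7, in 32 against 19.6 (1.63, 1.12 to 2.30). These intervals were not adjusted for the number of pairs. Counting MAP2, STMN2, GAP43, DCX and GPM6A together, 142 ectoderm cells had 2 of the 5 genes against 122 expected, 6 had 3 against 2.72, and 0 had 4. In hPSC, 125 cells had 2 against 132 expected and 1 had 3. No cell of either library held more than 3 of these genes at this depth. Independent detection would give only 0.00965 hPSC and 0.0215 ectoderm cells with 4, so the lack of such cells carries no information.

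**Figure D3:**
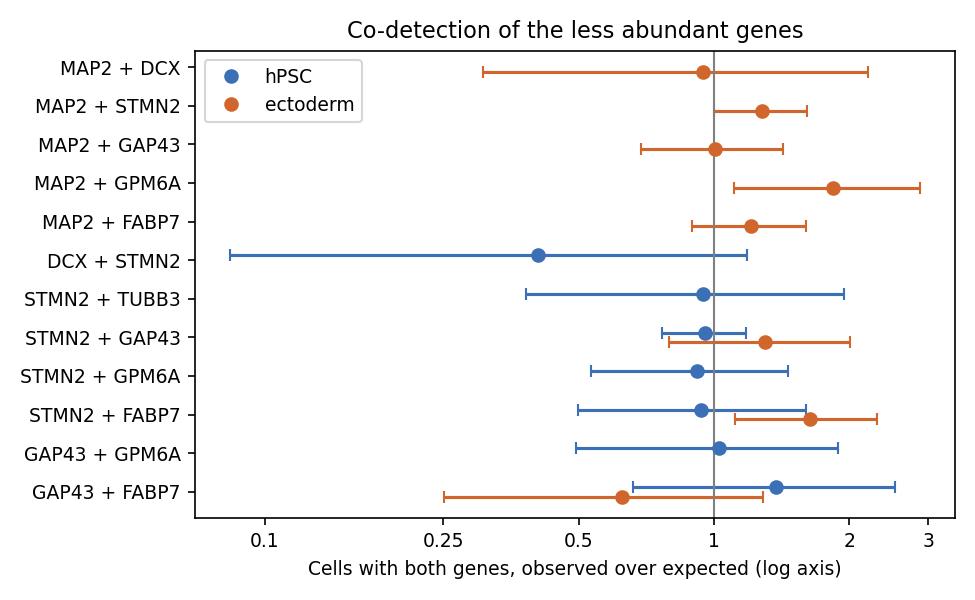
Cells with both genes of a pair, observed over expected, on a log axis, for pairs of the less abundant members with at least 5 cells expected, in hPSC (blue) and ectoderm (orange) cells thinned to 3000 UMIs; bars are exact Poisson 95% intervals. Only MAP2 with GPM6A and STMN2 with FABP7, both in ectoderm, have intervals above 1.

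Neuron markers outside the list were set beside these genes. Over 29 such genes the summed level was 254 CPM in hPSC and 165 CPM in ectoderm, so it was lower where MAP2 was higher. The difference lay mainly in SYT1 (81.5 in hPSC, 39.5 CPM in ectoderm), ELAVL2 (51.4 and 27.0 CPM) and NEFM (43.3 and 17.8 CPM). INA and GAD2 went the other way. The sum, here and per cell, thus says little about the other markers. In hPSC 16 of the 29 and in ectoderm 18 were under 1 CPM. Several genes that define neurons were near 0 in ectoderm: NEUROD1 at 0.0219 CPM, ELAVL4 at 0.197 CPM, SNAP25 at 0.0986 CPM, SLC17A6 at 0.0438 CPM, and TBR1 with 0 UMIs in both libraries. Others were not: 8 of the 29 were over 5 CPM there, among them NEFL at 32.9 CPM, INA at 17.9 CPM, GAD2 at 7.06 CPM and RBFOX3 at 5.74 CPM. INA and GAD2 had log2 ratios of 0.46, and the proneural factor NEUROG1 had 2 UMIs in hPSC and 177 in ectoderm, or 1.94 CPM. The genes in these sentences were picked after their values were seen. The highest in ectoderm was the synaptic vesicle gene SYT1, at 39.5 CPM against 81.5 in hPSC. No thinned cell had UMIs of more than 5 of the 29 markers in hPSC or 4 in ectoderm. Cells without a MAP2 UMI averaged only 0.778 marker UMIs in hPSC and 0.4995 in ectoderm. No expected number was computed, so this ceiling cannot show whether neurons were present. Ectoderm cells with a MAP2 UMI held 0.517 neuron marker UMIs on average and those without 0.4995, a log2 ratio of 0.05 (-0.07 to 0.17). The corresponding ratio was 0.08 (-0.09 to 0.24) for STMN2 and 0.11 (-0.11 to 0.32) for GAP43 in ectoderm, and -0.11 (-0.20 to -0.02) for STMN2 in hPSC. Over the 3 genes and both libraries these ratios were at most 0.11 in size.

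Cells were next ordered by the summed thinned UMIs of a gene list, and the upper and lower tertiles compared within each library. Such tertiles are ranges of a score and not cell types, and ties made them unequal: by neural genes the lower and upper held 5373 and 3187 cells in ectoderm and 6577 and 4007 in hPSC, by pluripotency genes 4602 and 3994 in ectoderm. In the ectoderm library, split by neural ectoderm progenitor genes at 5 and 8 UMIs, with 3189 cells lying on one of these values, MAP2 stood at 26.7 CPM in the lower and 42.6 CPM in the upper tertile (log2 ratio 0.67, 0.48 to 0.87). STMN2 differed in the same direction, at 12.9 and 21.9 CPM (0.76, 0.48 to 1.04). Both passed 1.5-fold at this depth, as 0.453% of the 5961 genes at 20 CPM in either tertile did in that direction. They did not pass it throughout: with cells thinned to 2000 UMIs the ratios were 0.51 for MAP2 and 0.49 for STMN2, and with 5000 UMIs 0.61 and 0.51, each with an interval above 0. GAP43 stood at 8.996 and 7.95 CPM (-0.18, -0.60 to 0.23), with an interval below those of MAP2 and STMN2 at this depth and at 5000 UMIs, where GAP43 reached up to 0.14. At 2000 UMIs the intervals overlapped, with GAP43 at -0.15 (-0.63 to 0.33). FABP7 stood at 10.5 and 13.3 CPM (0.34, -0.00 to 0.68). So MAP2 and STMN2, which differed in opposite directions between the libraries, varied in the same direction among ectoderm cells. For STMN2 and GAP43, which were both lower in ectoderm, the ratios differed in sign, that of GAP43 with an interval that includes 0.

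Ordering ectoderm cells by pluripotency genes gave ratios of the opposite sign for MAP2, STMN2, FABP7 and GAP43. Of the 11 such genes at 20 CPM, 4 were at least 2-fold lower in ectoderm and 1 higher, against 4.03% and 3.25% of all genes. The other 6 include DPPA4 (448 CPM in ectoderm, log2 ratio -0.10) and DNMT3B (393 CPM, 0.34). The score thus does not follow only genes that were lower in ectoderm. MAP2 stood at 37.4 CPM in the tertile with the fewest pluripotency UMIs and 28.7 CPM in the tertile with the most (-0.38, -0.58 to -0.18). STMN2 (-0.52, -0.81 to -0.23) and FABP7 (-0.59, -0.95 to -0.23) were also lower in the upper tertile, and GAP43 was not (0.30, -0.10 to 0.69). MAP2 and STMN2 were below 1.5-fold here, and their intervals included 0 in the 7020 cells deep enough to be thinned to 5000 UMIs (-0.18, -0.39 to 0.04, and -0.21, -0.51 to 0.08). In hPSC the neural list summed to 1 or 2 UMIs at the bounds. SOX2, also a pluripotency factor, and ZIC2 made up most of it there, at 236 and 211 of 622 CPM. A run without SOX2 was made in ectoderm only. STMN2 was higher in the upper hPSC tertile by this list, at 49.0 against 39.6 CPM (0.31, 0.15 to 0.46). GAP43 was lower there (-0.29, -0.53 to -0.05). MAP2 had only 13 and 19 UMIs in these hPSC tertiles (1.26, 0.17 to 2.40).

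**Figure D4:**
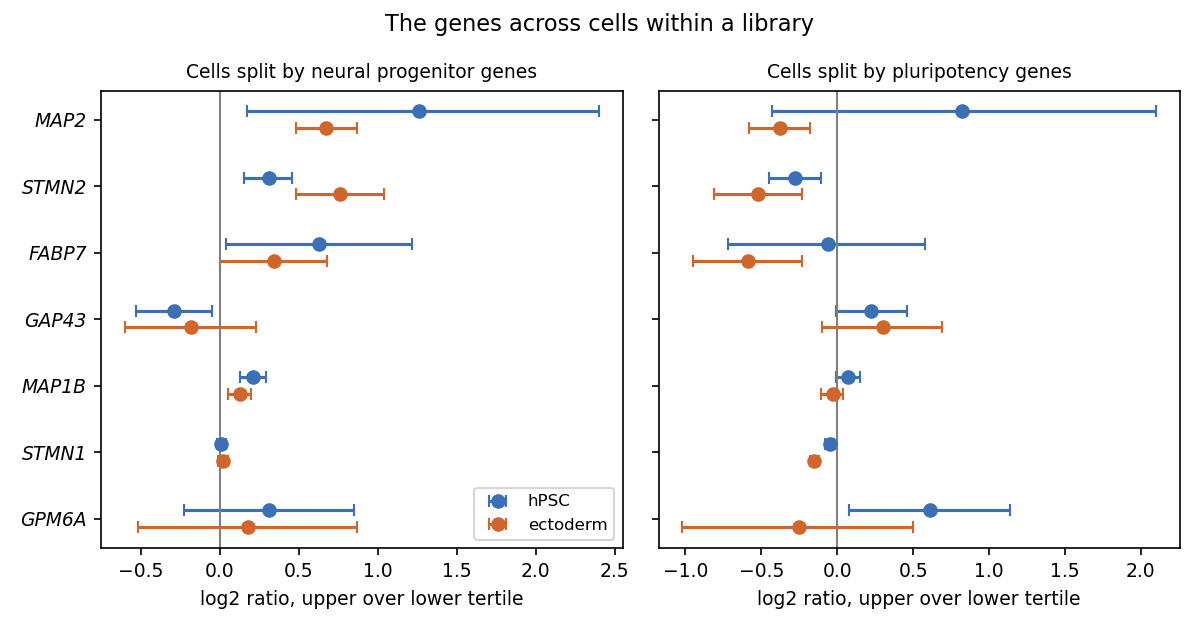
Log2 ratio of each gene between the upper and lower tertile of cells, ordered by neural progenitor genes (left) or pluripotency genes (right), within the hPSC (blue) and the ectoderm library (orange); bars are exact conditional binomial 95% intervals and the grey line marks equal levels. In ectoderm MAP2 (0.67) and STMN2 (0.76) lie to the right of the line on the left panel and to its left on the right panel, and the GAP43 intervals cover it on both.

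In hPSC, GAP43 and STMN2 differed in opposite directions between cells with few and with many UMIs of G2/M genes. GAP43 stood at 24.4 CPM in the tertile of hPSC cells with the fewest UMIs of G2/M genes and at 15.2 CPM in the tertile with the most (-0.68, -0.94 to -0.43). It thus passed 1.5-fold in the lower direction, as 0.808% of the 5941 genes compared did. STMN2 (0.28, 0.11 to 0.44) and MAP1B (0.33, 0.25 to 0.42) were higher in the G2/M tertile. MAP2 had only 11 and 15 UMIs in the lower and upper of these hPSC tertiles (0.57, -0.65 to 1.83), too few to place it. In ectoderm GAP43 differed little between those tertiles, at 9.38 and 9.04 CPM (-0.05, -0.42 to 0.32), as did MAP2 (-0.08, -0.27 to 0.11) and STMN2 (-0.02, -0.31 to 0.26). GPM6A was lower in the ectoderm G2/M tertile (-0.82, -1.56 to -0.10), from 49 and 26 UMIs. Between tertiles by S phase genes, the intervals of MAP2, STMN2 and GAP43 included 0 in both libraries. STMN2 was lower in cells with more mitochondrial UMIs, at 35.4 against 50.8 CPM in hPSC (-0.52, -0.69 to -0.35) and 14.6 against 18.3 CPM in ectoderm (-0.33, -0.61 to -0.05). The part of mitochondrial RNA in the STMN2 differences above was not tested. MAP2 in ectoderm (-0.01, -0.20 to 0.19) and GAP43 in hPSC (-0.01, -0.26 to 0.24) did not follow it beyond counting error.

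The genes most like each contrasted member were sought as those with the highest ratio between cells with and without its UMI, among genes with at least 20 UMIs and 20 CPM in the former. For MAP2 in ectoderm the first was MAPK10, a JNK kinase of the nervous system, at 41.9 against 21.8 CPM (log2 ratio 0.94, 0.68 to 1.19). It was followed by SORBS2 (0.70), GREB1L (0.69), PRTG (0.64) and EPG5 (0.64). Of these, GREB1L, MAPK10 and PRTG were also higher in the ectoderm library as a whole, by 6.96, 2.48 and 2.39 on the log2 scale. For STMN2 in hPSC the first were CEP85L (0.97, 0.81 to 1.12), AC012645.1 (0.94), the pseudogene LRRC37A11P (0.74), SORBS2 (0.68) and DUSP4 (0.58). In ectoderm they were LRRC37A11P (0.94, 0.42 to 1.41), AF131215.6, RAD54B, TBC1D9B and BPGM, so LRRC37A11P came up in both libraries. For GAP43 in hPSC they were PDK1 (0.95, 0.55 to 1.33), SH3KBP1, POLQ, TRIM23 and CYB5R2, and in ectoderm TOR2A, CRYGEP, DVL1, KIAA0100 and RAP1GAP2. The share of genes 1.5-fold higher was 0.150% of 5996 for MAP2 in ectoderm, 0.0682% of 5869 for STMN2 and 0.118% of 5927 for GAP43 in hPSC. It was 0.493% of 6087 for STMN2 and 1.31% of 6100 for GAP43 in ectoderm, where only 598 and 342 cells had the UMI. The shares of genes 1.5-fold lower were of similar size for STMN2 and GAP43, at 0.0511% and 0.118% in hPSC and 0.427% and 1.44% in ectoderm. For MAP2 in ectoderm the lower share was 0.0334%. The highest ratios among so many genes are extreme by selection, and the 38 hPSC cells with MAP2 were too few for such a ranking.

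Cells carrying exactly 1 guide, at 20 or more amplicon UMIs, were grouped by the targeted gene, for targets with at least 50 cells. This gave 9 groups in hPSC and 29 in ectoderm, the non-targeting cells included, all from the same culture and library and so not replicates. MAP2 ran from 0 to 5.59 CPM over the hPSC groups and from 18.7 to 62.5 CPM over the ectoderm groups, without overlap. Each hPSC group held at most 2 MAP2 UMIs. The share of all genes whose group ranges do not overlap was not computed, so the lack of overlap adds nothing to the difference between the libraries. For STMN2 the ranges were 27.3 to 71.3 CPM and 0 to 29.3 CPM, and for GAP43 12.1 to 27.5 CPM and 0 to 17.1 CPM, both with overlap. The FABP7 ranges, 0 to 7.12 and 5.07 to 25.1 CPM, overlapped as well. Non-targeting cells stood at 40.8 CPM of STMN2 in hPSC and 16.7 CPM in ectoderm, and at 21.6 and 4.91 CPM of GAP43, within the ranges of the targeted groups.

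Among 28 targets in ectoderm, MAP2 counts lay outside the library's own average for 2: LAMB1, with 22 UMIs in 64 cells against 11.6 predicted, and DHRS4, with 23 UMIs in 69 cells against 14.5. The intervals were not adjusted for the number of targets, and these 2 were singled out after their values were seen. Among the same 28 targets, MAP1B and STMN1 also had 2 each outside, and STMN2 and FABP7 had 1 each. The 54 cells with guides against SOX2, a neural and pluripotency factor, had 10 MAP2 UMIs against 10.3 predicted, 2 of STMN2 against 5.53 and 2 of FABP7 against 3.85. Differences of this size were not detectable at this depth.

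**Figure D5:**
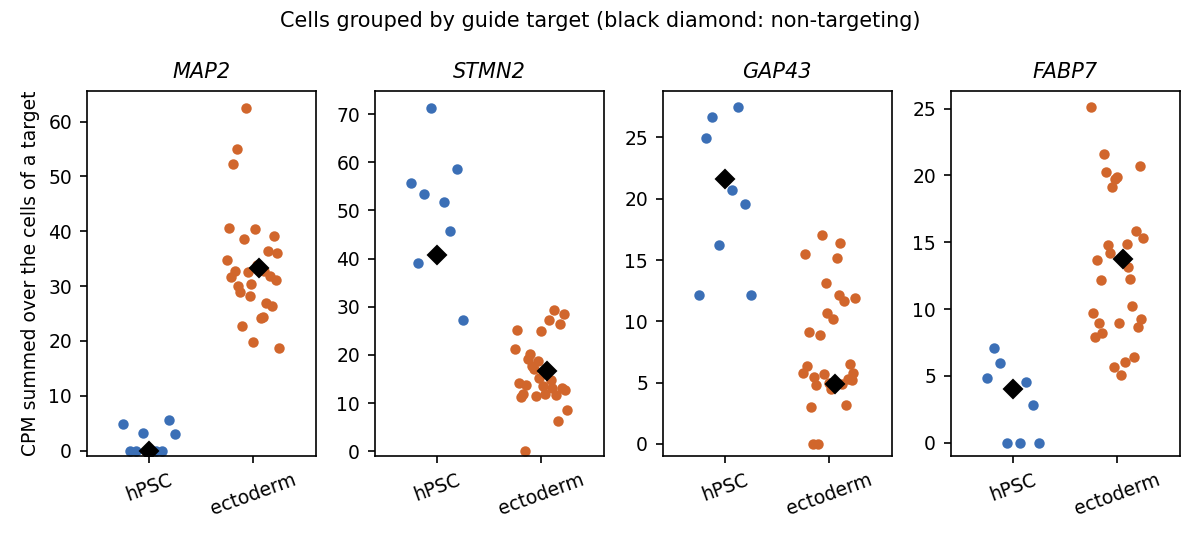
CPM of MAP2, STMN2, GAP43 and FABP7 summed over the cells of each guide target with at least 50 cells, 9 groups in hPSC (blue) and 29 in ectoderm (orange); black diamonds are cells with a non-targeting guide and each panel has its own linear axis. Every ectoderm group lies above every hPSC group for MAP2 (18.7 to 62.5 against 0 to 5.59 CPM, from at most 2 UMIs per hPSC group). The ranges touch or overlap for the other genes.

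Other genes of the same machinery were read against the members. Of 37 microtubule-associated genes, 17 reached 20 CPM, 1 was at least 2-fold higher and 0 were lower, against 3.25% and 4.03% of all genes at that level, with a median log2 ratio of -0.01 over the 27 at 5 CPM or more. The one was DPYSL3, a collapsin response protein of growing axons, at 449 against 164 CPM (1.46, 1.43 to 1.49). KIF5A (0.89) and, at the other end, STMN3 (-1.08) and CRMP1 (-0.86) came next. STMN3, a neuronal relative of STMN2, stood at 5.11 CPM in ectoderm against 10.8 in hPSC. With 1 of 17, the list was close to the share over all genes.

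Of 13 tubulin genes 10 reached 20 CPM, and 3 were at least 2-fold lower in ectoderm while 0 were higher. Over all genes at that level the shares were 4.03% and 3.25%. The 3 tubulin genes were TUBB2A, at 19.0 against 131 CPM (-2.78, -2.86 to -2.71), TUBA4A (-1.25) and TUBB2B, at 355 against 815 CPM (-1.20). TUBB2A and TUBB2B are near-identical neighbours, so reads may have been split between them or lost. The housekeeping subunits TUBA1B (0.14) and TUBB (0.06) were close to level. The tubulins lower in ectoderm share their direction with TUBB3.

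Of 34 growth cone and axon genes 14 reached 20 CPM, of which 2 were higher and 1 lower, against 3.25% and 4.03% of all genes at that level. NRP2, a semaphorin receptor, stood at 126 against 19.2 CPM (2.72, 2.64 to 2.79) and the guidance receptor ROBO2 at 26.9 against 7.06 CPM (1.93). The actin-bundling gene FSCN1 was the lower one, at 95.9 against 273 CPM (-1.51, -1.55 to -1.47), and the secreted guidance cue SEMA3A, under 20 CPM, had a ratio of -2.51. BASP1 and MARCKS, membrane proteins of the same functional family as GAP43, had ratios of 0.72 and 0.88, opposite in sign to GAP43. They were picked for that kinship after their values were seen.

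Among the neuron markers 4 reached 20 CPM and 2 were at least 2-fold lower, against 4.03% of all genes at that level. The 2 were the neurofilament gene NEFM, at 17.8 against 43.3 CPM (-1.28, -1.37 to -1.19), and SYT1 (-1.05). SRRM4, a neuronal splicing factor, was at 6.71 against 1.21 CPM. Among the radial glia genes, SOX9 (3.23) and HES1 (2.76) were at least 2-fold higher, as was the member FABP7 at its lower level, whereas FABP5, a close relative of FABP7, was lower at 295 against 951 CPM (-1.69, -1.71 to -1.67). PTPRZ1 (-0.87), VIM (-0.78) and SLC1A3 (-0.33), also radial glia genes, were lower in ectoderm by less than 2-fold. The repressor REST, which keeps many neuronal genes off outside neurons, stood at 82.4 CPM in ectoderm against 61.2 in hPSC (0.43, 0.38 to 0.48). None of the 8 genes for REST, its partners and the splicing repressors PTBP1 and PTBP2 differed by 2-fold. Of all 6249 genes at 20 CPM, 7.28% did in either direction, so a count of 0 among 8 does not set them apart. Markers of other tissues were low: the 12 blood and endothelial genes summed to 1.73 CPM in hPSC and 3.74 CPM in ectoderm, and of 10 neural crest genes 6 and 7 were under 1 CPM.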

How the data were processed

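The deposited matrices give, for each cell and gene, the authors' raw UMI counts from 10x 3′ libraries. The submitters' processing notes name STARsolo, STAR and the build GRCh38, and no source used here gives versions, annotation or strand setting. The deposited amplicon tables link cell barcodes to guides, 1 read per line, with mismatch counts from the authors; the hPSC table may be cut short. The labels name one chemistry for both libraries, and nothing says that separate cultures were made.

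Cells with at least 1000 UMIs, 500 genes and at most 20% mitochondrial UMIs were kept, which removed 7 of 15333 hPSC and 0 of 16360 ectoderm barcodes. Doublets were not called. UMIs were summed and scaled to CPM. CPM have exact Poisson, shares Clopper-Pearson and ratios exact conditional binomial 95% intervals (Python 3.11.15, numpy 2.4.6, scipy 1.17.1). PCR and droplet effects are not in them. A difference was counted at 20 CPM in at least 1 library and 2-fold, with no test. A library at 0 was set to a floor of 3 counts. Cells were thinned with seed 0. The ratio and co-detection steps were tested on simulated data. The members, lists and the rule on guides were chosen with earlier results of these data known. Named genes are the members, up to 2 from each end of each list at 5 CPM, and the 5 highest partners; others were chosen after their values were seen. Alternatives were other cell filters, totals, thinning depths, minimums, non-targeting cells and shared barcodes. Some results on the radial glia list are not reported here.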

Additional observations from a re-analysis of the deposited data

How the results depend on the processing

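No paired analysis was possible because each state was 1 library and no result comes from a test. Of 113 recomputed log2 ratios 97 stayed within the counting interval of the reported value, 16 moved outside it and 0 reversed. With non-targeting cells only, MAP2 had a log2 ratio of 3.80, a value set by the floor (interval from 3.42, no upper bound), and GAP43 one of -2.14. Thinning to 3000 UMIs gave STMN2 -1.39, with shallow cells left out. The number of members counted was 5 with no minimum, which added TUBB3 and FABP7, 4 at 5 CPM, and 2 without cells over 3 times the median UMIs. Detection at 2 UMIs or more left too few cells: the co-detection ratio was 2.56 for MAP2 with STMN2, from 1 cell, and 0 for MAP2 with GAP43 and for STMN2 with GAP43, from 0 cells. Added after seeing the data, thinning to 5000 UMIs brought the MAP2 and STMN2 ratios between pluripotency tertiles to -0.18 and -0.21, and thinning to 2000 UMIs that of FABP7 between neural tertiles to 0.76; the cause was not tested. Between neural tertiles, MAP2 was 0.51 and STMN2 0.49 with 2000 UMIs, and 0.61 and 0.51 with 5000, so that only MAP2 at 5000 kept 1.5-fold; leaving SOX2 and POU5F1 out of the lists gave 0.70 for both. Depth limits the low members most: DCX and TUBB3 rest on 59 to 147 UMIs per library, and 1 library per state leaves differences between cultures unmeasured.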
